A study of Mus musculus with 12 samples.

Results

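Triglyceride storage and breakdown was described here through 10 genes picked by symbol: Lpl, Pnpla2, Abhd5, G0s2, Lipe, Mgll, Plin2, Plin5, Dgat1 and Dgat2. They are 10 of the 24061 gene symbols counted in each heart library, and all 10 passed the filter on low counts. The set was chosen by the measured genotype difference of Mgll, known from earlier results on these data to be higher in HKII+/- hearts, together with its pathway. Its genotype difference and those of its partners are therefore a description and carry no test. RNA was measured in hearts of 12 male C57BL/6J mice on chow, aged 2 to 4 months, 6 of genotype HKII+/- (replicates 11, 12, 16, 19, 20 and 22) and 6 of genotype HKII+/+ (replicates 13, 14, 15, 17, 18 and 21). The labels name the tissue as heart with no chamber, and no treatment or other allele. HKII is hexokinase II, encoded by Hk2, the enzyme that phosphorylates glucose at the entry to glycolysis.

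Heart muscle takes most of its energy from fatty acids. Lipoprotein lipase, made by cardiomyocytes and moved to the capillary surface, frees fatty acids from circulating triglyceride, and part of what enters the cell is stored as triglyceride in lipid droplets by the DGAT enzymes. Droplet triglyceride is then broken down in a chain of hydrolases: adipose triglyceride lipase (Pnpla2) removes the first fatty acid, hormone-sensitive lipase (Lipe) acts on the diacylglycerol, and monoacylglycerol lipase (Mgll) releases the last fatty acid and glycerol. Abhd5 activates Pnpla2 and G0s2 inhibits it. Plin2 and Plin5 coat the droplet, and Plin5 ties it to mitochondria in oxidative tissues.

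Depth per library ran from 17263209 to 51556592 counts. A note of the submitters flags 1 library of each genotype as a possible outlier, replicate 11 (HKII+/-) and replicate 13 (HKII+/+). Results are given without these 2 libraries (10 unmarked libraries) and, as counts or values beside them, with all 12. Hk2 measured 255.6 to 353.9 CPM (counts scaled to a common library total) in the 5 unmarked HKII+/- libraries and 470.7 to 542.15 CPM in the 5 unmarked HKII+/+ libraries, with no overlap. The library labelled HKII+/- replicate 11 held 567.6 CPM of Hk2, above all unmarked HKII+/+ libraries and against its label, and it enters every direction drawn from 12 libraries. Markers of ventricular cardiomyocytes (Myl2, Myl3, Tnni3 and Actn2) summed to 13167 to 18952 CPM in the unmarked libraries, to 33213 CPM in replicate 11 and to 42569 CPM in replicate 13. Myl3, Tnni3 and Actn2 were high in both marked libraries. Myl2 went the other way in replicate 11, at 2257 CPM, against 4217 to 6702 CPM in the unmarked libraries and 5064 CPM in replicate 13. Replicate 11 also held 980.2 CPM of 5 white adipocyte markers and 240.6 CPM of 4 airway and lung epithelium markers. Of the epithelium markers, Cyp2f2 gave 190.4 CPM, Wfdc2 29.3 CPM and Scgb1a1 20.9 CPM, and Sftpc was at 0 counts. The scaling factors of the marked libraries were 0.787 and 0.760, against 0.992 to 1.09 in the others. In tissue RNA of this kind, fewer cells of a type and less RNA per cell cannot be told apart.

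Per length, Lpl was by far the most abundant of the 10 genes. In CPM per kb of exon over the 10 unmarked libraries, Lpl measured 539 ± 58.7 (SD, n = 10). Dgat2, which esterifies diacylglycerol, followed at 164 ± 14.2 and Pnpla2 at 143 ± 9.56, with overlapping ranges. Plin5 measured 70.4 ± 8.60, Mgll 46.7 ± 7.27 and G0s2 43.2 ± 13.3 CPM per kb. The ranges of Plin5 and Mgll overlapped, as did those of Mgll and G0s2. Plin2 lay apart from its neighbours at 17.4 ± 2.27 CPM per kb. Abhd5 (9.82 ± 0.520), Dgat1 (9.28 ± 0.573) and Lipe (7.88 ± 1.27) closed the order with overlapping ranges. Over all 12 libraries Mgll (52.0 ± 14.1) and G0s2 (60.6 ± 42.4) changed places, and Abhd5 (9.33 ± 1.23) rather than Lipe (9.77 ± 6.24) had the lowest mean.

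**Figure D1:**
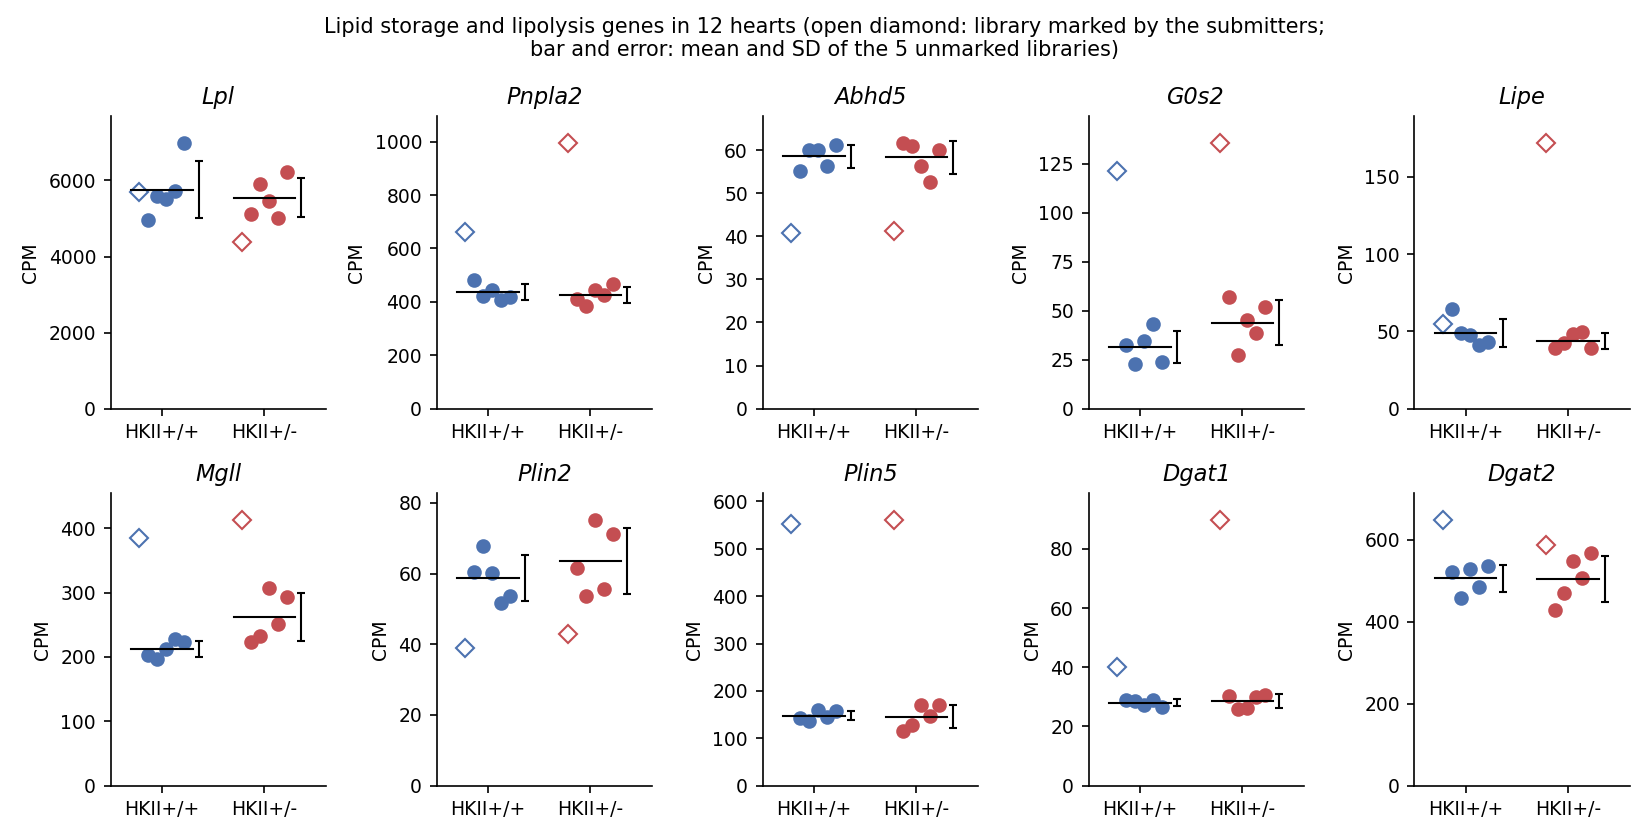
CPM of each gene in every library (vertical axis from 0), by genotype, with filled points for the 5 unmarked libraries of a genotype, open diamonds for the marked one, and a bar with error for the mean and SD of the 5. The open diamonds lie outside the filled points for most genes, and for Mgll 4 of the 5 filled HKII+/- points lie above every filled HKII+/+ point.

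Mgll was higher on average in HKII+/- hearts, with no call after adjustment. The gene (ENSMUSG00000033174.17, protein coding) lies on chromosome 6 of GRCm38 between bases 88724412 and 88828360, plus strand, and its start is 5.95 Mb from that of Hk2 on the same chromosome. The bases just upstream of its first annotated start (chr6:88724162-88724411, plus strand, GRCm38.p6, from RefSeq) are shown because Mgll is the gene the comparison turns on, with the E-box CACGTG in capitals:

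Mgll: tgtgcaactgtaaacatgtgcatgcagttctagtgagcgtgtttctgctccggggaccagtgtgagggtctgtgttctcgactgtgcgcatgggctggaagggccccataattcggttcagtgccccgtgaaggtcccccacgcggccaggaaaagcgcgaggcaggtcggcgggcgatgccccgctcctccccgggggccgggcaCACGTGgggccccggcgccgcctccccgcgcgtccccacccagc

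The E-box begins 44 bases before the start, and 6.02% of the 32851 upstream windows of 250 bases hold this motif on either strand. Of 7 genes of the set matched to RefSeq windows, 2 hold it in any of their windows.

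In the unmarked HKII+/+ libraries Mgll measured 197.3 (replicate 15), 203.2 (14), 212.0 (17), 222.9 (21) and 227.8 (18) CPM. In the unmarked HKII+/- libraries it measured 223.5 (replicate 12), 232.2 (16), 250.4 (20), 293.8 (22) and 307.8 (19) CPM. All but replicate 12 of these 5 HKII+/- libraries lay above every unmarked HKII+/+ library, so the groups overlapped by 1 library. Means were 261.5 ± 37.5 CPM in HKII+/- and 212.6 ± 12.85 CPM in HKII+/+ (SD, n = 5 each), a log2 fold change of 0.30 (SE 0.09, 95% interval 0.10 to 0.50 by edgeR) or a ratio of 1.23. The marked libraries held the highest values of their genotypes, 412.8 CPM in replicate 11 and 384.7 CPM in replicate 13. All 12 libraries gave 0.25 (SE 0.20) with an interval of -0.19 to 0.69. It was 0.11 without replicate 11 alone and 0.45 without replicate 13 alone. HKII+/- replicates 19 and 22, the highest in Mgll of the unmarked libraries, were also the lowest in fat and atrial markers, and without them and the marked libraries the value was 0.15 (SE 0.06).

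The inhibitor of the first step, G0s2, had the largest log2 fold change of the set in the unmarked libraries, with overlapping genotypes and no call after adjustment. G0s2 (ENSMUSG00000009633.3) lies on chromosome 1 of GRCm38, minus strand, between bases 193272161 and 193273217. The window upstream of its RefSeq start (chr1:193273189-193273438, minus strand, GRCm38.p6) overlaps this annotated gene from base 193273189 to 193273217. The window is shown untrimmed beside that of Mgll with a GC box, GGGCGG or its reverse complement CCGCCC, in capitals:

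G0s2: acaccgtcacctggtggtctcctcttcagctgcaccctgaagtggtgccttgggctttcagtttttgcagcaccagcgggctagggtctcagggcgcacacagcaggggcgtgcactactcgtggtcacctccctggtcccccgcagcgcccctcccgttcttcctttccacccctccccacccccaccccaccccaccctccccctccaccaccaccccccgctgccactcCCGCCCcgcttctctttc

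The GC box of G0s2 begins 18 bases before the end of its window and lies inside that overlap. A GC box is common, in 32.7% of all windows, and 6 of the 7 matched genes hold one in any of their windows. The Mgll window above holds none, but another RefSeq window of Mgll (chr6:88724454-88724703, not shown) does. Plin2 is the matched gene without one. The G0s2 window holds no E-box. G0s2 measured 22.9 (replicate 15), 23.9 (21), 32.3 (14), 34.5 (17) and 43.3 (18) CPM in unmarked HKII+/+ libraries. In unmarked HKII+/- libraries it measured 27.3 (replicate 16), 38.8 (20), 45.0 (19), 51.6 (22) and 56.9 (12) CPM. Of these, 3 of 5 lay above all 5 HKII+/+ libraries, and the ranges overlapped. The difference on the log2 scale was 0.49 (SE 0.21, 95% interval 0.04 to 0.95), and 0.40 (SE 0.24) without replicates 19 and 22 as well. The marked libraries held 135.5 (replicate 11) and 121.1 CPM (replicate 13), 3.70 and 3.30 times the median of the unmarked ones. With 12 libraries the log2 fold change was 0.35 (SE 0.47). That value turned to -0.08 without replicate 11 and rose to 0.94 without replicate 13.

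For the other lipases of the chain and the coactivator, the interval of the difference included 0 in the 10 unmarked libraries. Pnpla2, the first lipase, measured 408.4 to 483.1 CPM in unmarked HKII+/+ and 385.2 to 465.1 CPM in unmarked HKII+/- libraries. It gave a log2 fold change of -0.03 (SE 0.06, interval -0.17 to 0.11) in the 10 libraries. Abhd5, the coactivator, gave 0.00 (SE 0.06, interval -0.13 to 0.12), with 52.6 to 61.7 CPM in HKII+/- and 55.3 to 61.2 CPM in HKII+/+. Lipe, the diacylglycerol lipase, measured 39.0 (replicate 12), 39.1 (22), 42.6 (16), 48.5 (19) and 49.4 (20) CPM in HKII+/-. In HKII+/+ it measured 41.3 (replicate 18), 43.1 (21), 47.8 (17), 48.7 (15) and 64.4 (14) CPM, overlapping the HKII+/- values. Lipe gave a log2 fold change of -0.17 (SE 0.11, interval -0.42 to 0.08), with the opposite sign to that of Mgll. In 12 libraries Lipe gave 0.38 (SE 0.36), a value set by replicate 11, which held 172.0 CPM, and without that library it was -0.19 (SE 0.13). Pnpla2 likewise went from 0.14 (SE 0.24) in 12 libraries to -0.15 without replicate 11, where it measured 995.6 CPM, and to 0.28 without replicate 13. The exons of Lipe, Abhd5 and Mgll overlap antisense genes over 15.6%, 15.95% and 3.29% of their bases. The strand setting of the counting is not given in the sources used here.

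Within a library, Mgll stood at 0.545 to 0.693 times the CPM of Pnpla2 in unmarked HKII+/- and 0.421 to 0.558 times in unmarked HKII+/+ hearts. These ranges overlap narrowly and do not depend on the scaling factor. The inhibitor to lipase ratio, G0s2 to Pnpla2, ran from 0.0708 to 0.139 in HKII+/- and from 0.0543 to 0.106 in HKII+/+. The coactivator ratio, Abhd5 to Pnpla2, covered 0.124 to 0.158 and 0.114 to 0.146, and its mean log2 value was 0.02 higher in HKII+/-. Over all 12 libraries that ratio turned, with a difference of -0.08. The mean log2 ratio of Mgll to Pnpla2 was 0.32 higher in HKII+/- over 10 libraries and 0.19 higher over 12, where the ranges were 0.415 to 0.693 in HKII+/- and 0.421 to 0.581 in HKII+/+. For G0s2 to Pnpla2 the differences were 0.51 and 0.36.

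Lipid supply, synthesis and droplet coat genes gave small differences with intervals on both sides of 0. Lpl measured 5019 to 6223 CPM in unmarked HKII+/- and 4965 to 6989 CPM in unmarked HKII+/+ libraries, a log2 fold change of -0.05 (SE 0.10, interval -0.27 to 0.16). Dgat1, the broad acyltransferase, gave 0.03 (SE 0.06, interval -0.10 to 0.17) and Dgat2 0.00 (SE 0.08, interval -0.18 to 0.17). Plin2, the ubiquitous droplet coat, gave 0.11 (SE 0.10, interval -0.11 to 0.33), with its 2 highest values in HKII+/- replicates 19 (75.2 CPM) and 22 (71.1 CPM). Without those libraries its value was -0.04. Plin5, the droplet coat of oxidative tissues, gave -0.02 (SE 0.10, interval -0.25 to 0.21). With 12 libraries the intervals of Plin5 (-1.04 to 1.04) and Dgat1 (-0.29 to 1.03) were several times wider, and Plin5 moved to -0.57 without replicate 11 and to 0.56 without replicate 13. Dgat1 moved from 0.37 to -0.07 without replicate 11, in which it measured 89.8 CPM against 25.9 to 30.6 CPM in the 10 unmarked libraries.

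**Figure D2:**
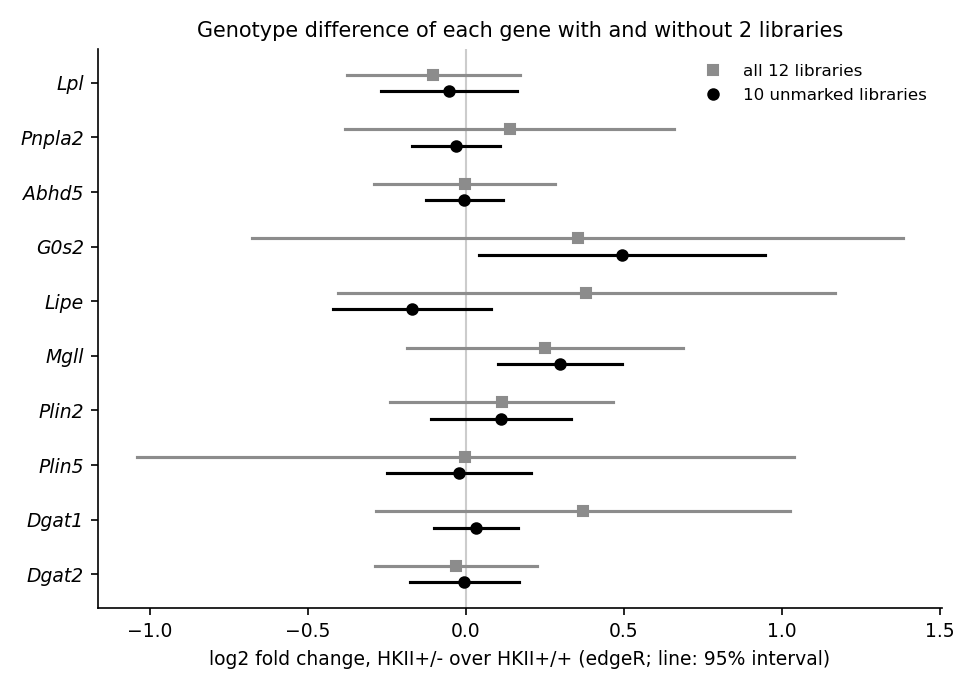
Log2 fold change of HKII+/- over HKII+/+ for each gene (horizontal axis), from 12 libraries (grey squares) and the 10 unmarked ones (black circles), with 95% intervals from edgeR. The black intervals of Mgll (0.10 to 0.50) and G0s2 (0.04 to 0.95) lie above 0 and the others cross it, as do all grey intervals.

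Over all genes, the quasi-likelihood test of edgeR called 0% of 14107 genes at an adjusted p below 0.05 with 12 libraries and 0.00707% of 14139 genes (Hk2 alone) with 10. None of the 10 genes was called in either. At an unadjusted p below 0.05, 0 of the 10 passed with 12 libraries, where 0.262% of all genes did. With 10 libraries 2 passed, both higher (Mgll and G0s2), where 2.8% of all genes passed and 1.51% passed upward. DESeq2 and limma voom gave the same counts for the set, and voom with sample weights passed Mgll alone with either 12 or 10 libraries. Of all genes, voom with sample weights passed 671 of 14107 with 12 libraries and 650 of 14139 with 10. DESeq2 passed 64 and 351, and limma voom 33 and 504. The CPM ranges of the genotypes did not overlap for 0 of the 10 genes, against 0.0213% of all genes with 12 libraries and 0.474% with 10. Because Mgll led to the choice of the set, nothing is read from these counts. The median log2 fold change of the set was 0.00 in the 10 libraries, as was that of all tested genes, and 0.13 against 0.00 in 12.

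Most genes of the set varied more when the marked libraries were included, and the coefficient of variation of Plin5 went from 12.2% over 10 libraries to 74.5% over 12. Plin5 measured 560.8 CPM in replicate 11 and 551.7 CPM in replicate 13, against 114.8 to 170.2 CPM in the 10 unmarked libraries. These are 3.85 and 3.79 times the unmarked median, although the 2 libraries differ in genotype. Its upstream window (chr17:56117597-56117798, minus strand, GRCm38.p6, RefSeq, trimmed at the first annotated exon) is shown as that of the gene with the largest shared shift. Capitals mark a nuclear receptor half-site AGGTCA (in 14.02% of all windows), a GC box GGGCGG and CCAAT boxes on either strand (in 33.9%):

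Plin5: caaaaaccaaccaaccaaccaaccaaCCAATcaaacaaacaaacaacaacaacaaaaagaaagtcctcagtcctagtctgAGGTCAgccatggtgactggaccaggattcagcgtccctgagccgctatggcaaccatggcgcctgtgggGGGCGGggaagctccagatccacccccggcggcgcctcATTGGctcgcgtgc

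Pnpla2, Mgll, G0s2, Plin5, Dgat1 and Dgat2 lay above all unmarked libraries in both marked ones, and Abhd5 and Plin2 lay below. Abhd5 stood at 0.688 and 0.680 times and Plin2 at 0.711 and 0.648 times the unmarked median in replicates 11 and 13. Lipe was raised in replicate 11 only, at 3.79 times against 1.20 times in replicate 13, where it lay inside the unmarked range. Lpl was lowest in replicate 11 (4382 CPM) and inside the range in replicate 13. Such placement was common: 39.8% of all tested genes in replicate 11 and 36.9% in replicate 13 lay above every unmarked library, and 45.1% and 42.6% lay below. The part of the ventricular, adipocyte and epithelium marker sums in these shifts was not tested.

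Mgll was lower, not higher, in the unmarked libraries with more Adipoq. Adipoq, the adipocyte hormone adiponectin, measured 1.87 (replicate 18), 5.87 (21), 9.25 (17), 14.2 (15) and 30.2 (14) CPM in unmarked HKII+/+ libraries. In unmarked HKII+/- libraries it measured 0.156 (replicate 22), 0.436 (19), 10.9 (20), 13.8 (16) and 21.9 (12) CPM. The marked libraries lay far apart, with 266.7 CPM in replicate 11, the highest, and 0.393 CPM in replicate 13, between replicates 22 and 19. Over the 10 unmarked libraries log2 Mgll and log2 Adipoq gave a Pearson r of -0.84 (permutation p = 0.0057, Benjamini-Hochberg adjusted over the 10 genes 0.057) and a Spearman rho of -0.66 (permutation p = 0.0434, adjusted 0.145). Without replicates 19 and 22, the 2 libraries farthest from the median of Adipoq, r was -0.33, so the pooled relation rests on them. With the genotype means removed, r was -0.93 (permutation p = 0.00246, adjusted 0.0246) and rho -0.95 (permutation p = 0.00213, adjusted 0.0213). Leaving those 2 libraries out after the means were removed gave r = -0.91. The means were still those of all 10 libraries, so this value is not free of replicates 19 and 22.

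Within the 6 HKII+/+ libraries, r was -0.89 (exact permutation p = 0.00417, adjusted 0.0417) and rho -0.94 (exact permutation p = 0.0167, adjusted 0.0833), and r was -0.89 in the 4 left without replicates 13 and 14. Within the 6 HKII+/- libraries r was 0.18 (exact permutation p = 0.729, adjusted 0.729) and rho -0.09 (exact permutation p = 0.919, adjusted 0.919), a group that includes replicate 11 with the highest Mgll and Adipoq. In the 4 HKII+/- libraries left without replicates 19 and 22, r was 0.94, a value that rests on replicate 11. In the unmarked replicates 20, 16 and 12 Mgll fell (250.4, 232.2 and 223.5 CPM) as Adipoq rose (10.9, 13.8 and 21.9 CPM), the direction of the HKII+/+ libraries. Over all 12 libraries r was -0.18 (permutation p = 0.568, adjusted 0.812) and rho -0.33 (permutation p = 0.297, adjusted 0.595). It was -0.85 without replicates 11 and 22, the 2 farthest from the median there, and 0.03 without replicate 13 alone. With log2 Adipoq as a covariate in the 10 libraries, the log2 fold change of Mgll was 0.20 (SE 0.05), against 0.30 without it. G0s2 gave 0.43 (SE 0.21) with the covariate.

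**Figure D3:**
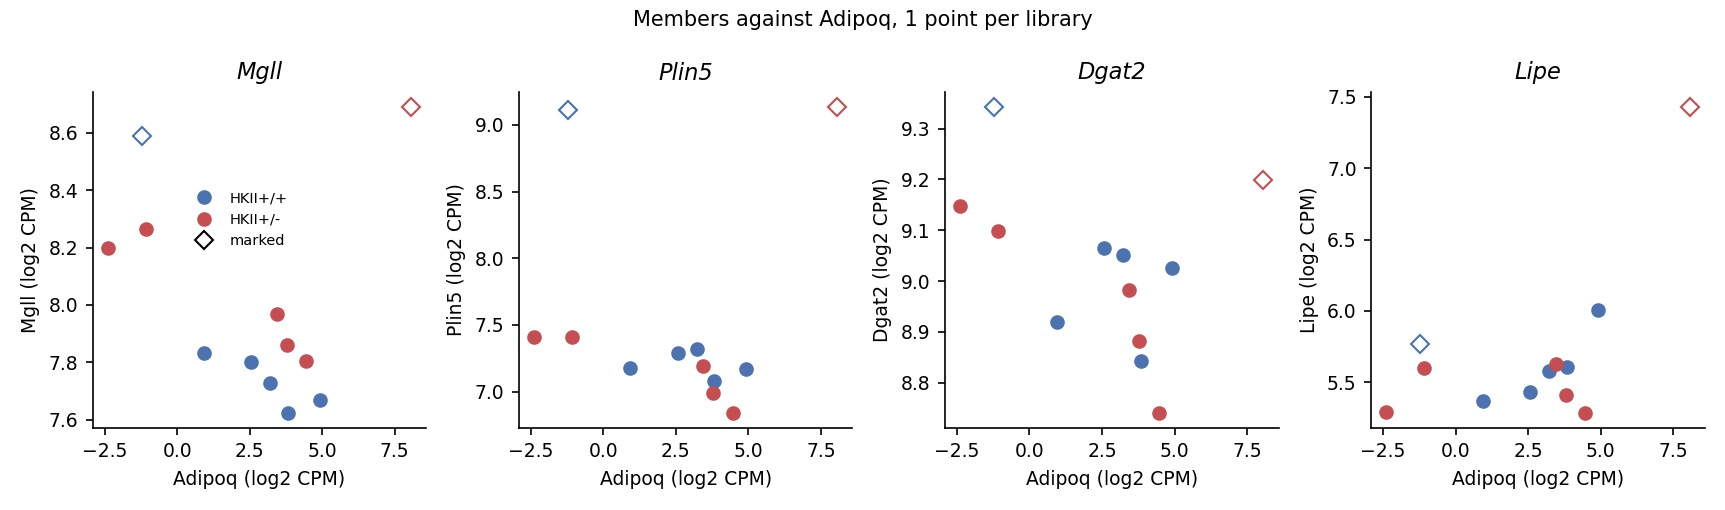
Log2 CPM of Mgll, Plin5, Dgat2 and Lipe (vertical axes) against log2 CPM of Adipoq (horizontal axis), 1 point per library, coloured by genotype, with open diamonds for the marked libraries. The filled Mgll points of each genotype lie lower at high Adipoq. The open diamonds lie above them, 1 at the highest Adipoq and 1 among the lowest.

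Adipoq did not vary alone. Its log2 CPM was compared with the mean log2 CPM of 4 atrial cardiomyocyte markers (Myl7, Sln, Myl4 and Bmp10). Over the 10 unmarked libraries r was 0.96 (permutation p = 0.00013, rho 0.81 with permutation p = 0.00715), and 0.90 without replicates 19 and 22. Bmp10 was at 0 counts in HKII+/+ replicate 18, where Myl7 (652.0 CPM), Sln (203.4 CPM) and Myl4 (711.3 CPM) were present. That 0 lowers the marker mean in the library with the least Adipoq of those left, and r without Bmp10 was not computed. The summed atrial markers measured 1.68 CPM in replicate 22 and 48.3 CPM in replicate 19, against 750.2 to 2520.5 CPM in the other 8 unmarked libraries. The 5 white adipocyte markers summed to 0.977 CPM in replicate 22 and 2.76 CPM in replicate 19, where Lep was at 0 counts, against 16.4 to 137.1 CPM in the other unmarked libraries. Among unmarked libraries these low values fell in HKII+/- hearts alone. With both low in replicates 19 and 22, fat and atrial markers cannot be told apart as companions of Mgll in these data. With the atrial marker mean as covariate the log2 fold change of Mgll was 0.21 (SE 0.06).

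No gene of the set, Mgll included, passed the adjusted test against Adipoq in the pooled libraries. Lipe gave r = 0.60 over 12 libraries (permutation p = 0.0363, adjusted 0.181) and rho = 0.36 (permutation p = 0.26, adjusted 0.595), and r was -0.03 without replicates 11 and 22. In the 10 unmarked libraries its r was 0.41 (permutation p = 0.247, adjusted 0.353) and rho 0.33 (permutation p = 0.35, adjusted 0.583). Plin5 and Dgat2 gave, against Adipoq in the 10 libraries, r = -0.72 (permutation p = 0.0188, adjusted 0.0941) and r = -0.63 (permutation p = 0.0488, adjusted 0.163), neither past the threshold after adjustment. Their rho values were -0.83 (permutation p = 0.00506, adjusted 0.0506) and -0.72 (permutation p = 0.0233, adjusted 0.117), and without replicates 19 and 22 their r was -0.44 and -0.22. Within HKII+/+ libraries Plin2 rose with Adipoq (r = 0.92, exact permutation p = 0.00972, adjusted 0.0486; rho 0.94, exact permutation p = 0.0167, adjusted 0.0833), with r = 0.89 in the 4 libraries left without replicates 13 and 14. Within HKII+/- libraries Plin2 gave r = -0.93 (exact permutation p = 0.0153, adjusted 0.153) and rho -0.77 (exact permutation p = 0.103, adjusted 0.681), of opposite sign.

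Between the 10 genes, far fewer pairs were correlated once the marked libraries were set aside. Of the 45 pairs, 17 were positively and 10 negatively correlated over 12 libraries at an adjusted p below 0.05 (permutation test, adjusted over 45 pairs). In replicate 11, 39.8% of all tested genes lay above and 45.1% below every unmarked library, and in replicate 13, 36.9% and 42.6%. The share over all pairs of genes was not computed, so these counts are not read as a trait of the set. Over the 10 unmarked libraries 1 pair passed. That pair was the droplet coat Plin5 and the acyltransferase Dgat2, with r = 0.95 (permutation p = 6e-05, adjusted 0.0027) and rho = 0.94 (permutation p = 0.00024, adjusted 0.0108). Its r was 0.89 without the 2 libraries farthest from the median of Plin5. Dgat2 measured 428.0 CPM in HKII+/- replicate 12, the lowest in both genes, and 567.5 CPM in replicate 22, the highest in both. Mgll gave r = 0.81 with Pnpla2 over 12 libraries and 0.17 over 10, and 0.58 with Lipe over 12 and -0.32 over 10.

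**Figure D4:**
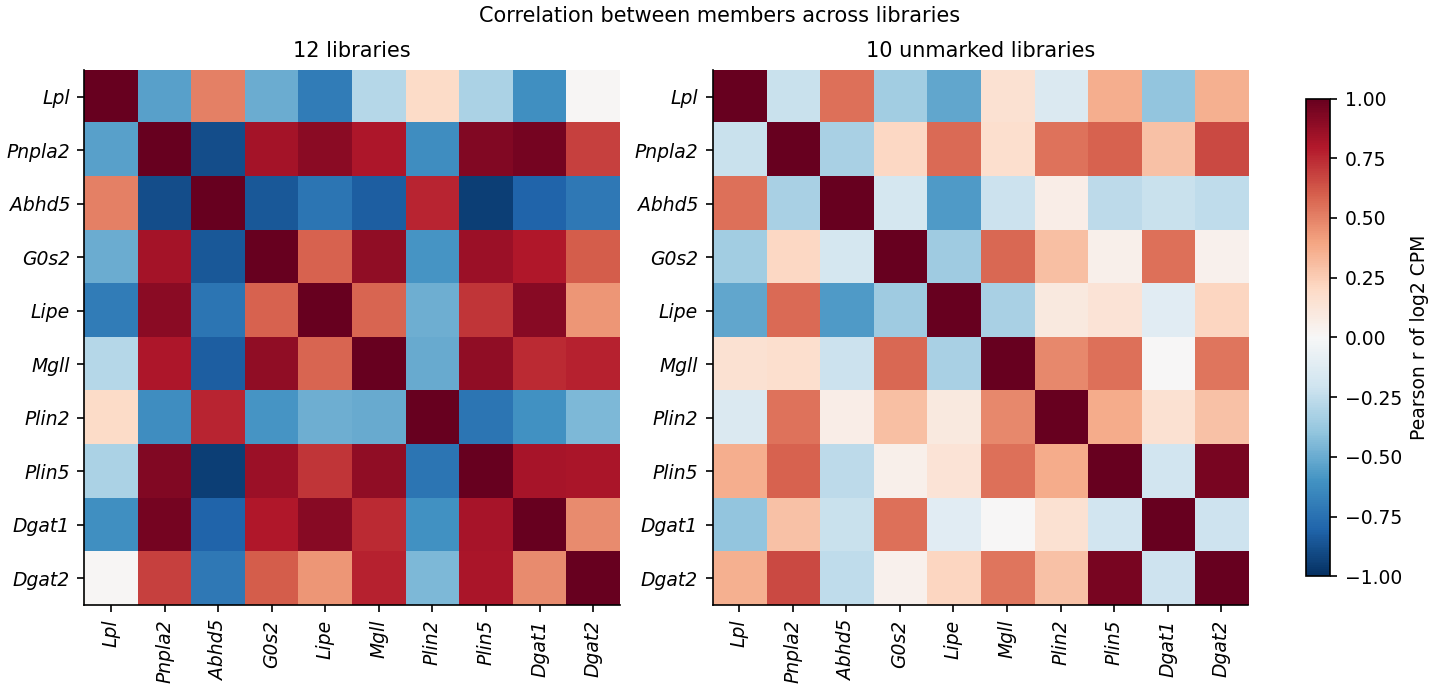
Pearson r of log2 CPM between the genes, over 12 libraries (left) and the 10 unmarked ones (right), with red for positive and blue for negative values. The block of strong values on the left is absent on the right, where Plin5 and Dgat2 (r = 0.95) stand out.

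The genes most like Mgll across the 10 unmarked libraries were not members of the set. Among 13028 genes with an average log2 CPM of at least 0, the 5 with the highest r over the 10 unmarked libraries were Gadd45gip1 (r = 0.94), Dysf (0.92), Atp5l (0.91), Igflr1 (0.90) and Ppp1r12c (0.89). Gadd45gip1 encodes a mitochondrial ribosome protein, Dysf the membrane repair protein dysferlin and Atp5l a subunit of ATP synthase. Dysf is the 1 of these 5 on chromosome 6, and its log2 fold change was 0.30, equal to that of Mgll at this rounding. Of the set, G0s2 ranked highest at 1177 (r = 0.58), followed by Plin5 at 1400 (r = 0.55) and Dgat2 at 1510 (r = 0.54). Lipe, the preceding enzyme of the chain, ranked 9664 (r = -0.32). Over all 12 libraries r with Mgll was 0.97 for Dysf, 0.95 for Igflr1, 0.89 for Gadd45gip1, 0.88 for Ppp1r12c and -0.51 for Atp5l. G0s2 and Plin5 then reached 0.88 each and ranked 342 and 369, level with Ppp1r12c. These correlations are a description of libraries that share their depth and marker differences.

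The genes around Mgll did not share its direction as a group. Of 22 tested genes that start within 1 Mb of it, 7 were higher and 15 lower in the unmarked HKII+/- libraries. Their median log2 fold change was -0.03, and 47.3% of all tested genes were higher. With 12 libraries 9 of the 22 were higher and 13 lower, with a median of -0.02, where 49.5% of all tested genes were higher. At an unadjusted p below 0.05, 1 was higher and 2 were lower, 3 of 22 against 2.8% of all genes. Kbtbd12, a kelch protein gene whose start lies 86.5 kb before that of Mgll, gave 0.78 (SE 0.16). It measured 28.4 to 43.2 CPM in HKII+/- and 17.2 to 31.4 CPM in HKII+/+, with 4 of 5 HKII+/- libraries above all HKII+/+ ones. Abtb1, 118 kb after it, gave -0.24 (SE 0.06), with 20.5 to 26.5 CPM in HKII+/- and 26.9 to 28.1 CPM in HKII+/+ and no overlap. Chchd6, which encodes a protein of the mitochondrial inner membrane organising complex, lies 871 kb after it and gave -0.30 (SE 0.10). With 12 libraries Kbtbd12 alone passed, at 0.64 (SE 0.25), where 0.262% of all genes passed.

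**Figure D5:**
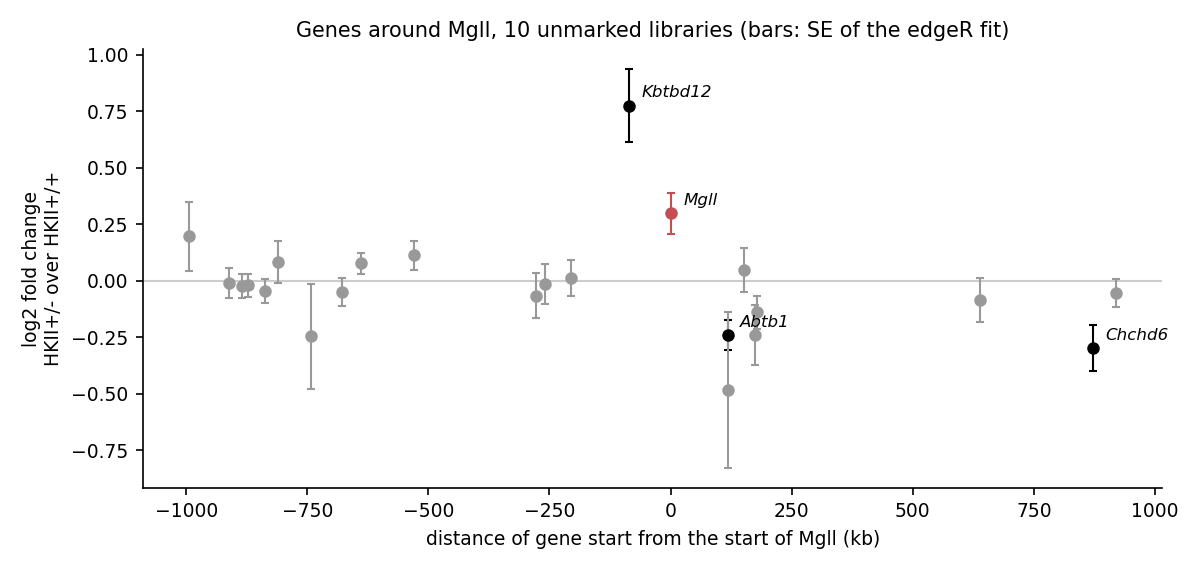
Log2 fold change of HKII+/- over HKII+/+ in the 10 unmarked libraries (vertical axis, bars are SE) for tested genes by the distance of their start from that of Mgll in kb (horizontal axis). Kbtbd12 (0.78) and Mgll (0.30) stand above the rest, and Abtb1 and Chchd6 lie below 0.

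No gene of the wider pathway was called. Of 84 further genes of lipoprotein lipase handling, fatty acid handling, glycerolipid synthesis, lipid droplets, lipolysis signalling and other lipases, 75 were tested and 0 were called with 12 or 10 libraries. At an unadjusted p below 0.05, 0 of 75 passed with 12 libraries against 0.262% of all genes, and 1 with 10 against 2.8%. DESeq2 and limma voom gave the same counts, and voom with sample weights 2 and 1, where it passed 671 of 14107 and 650 of 14139 genes. The gene in edgeR was Mogat2, a monoacylglycerol acyltransferase, at 2.62 to 3.10 CPM in HKII+/- and 1.45 to 3.04 CPM in HKII+/+, a log2 fold change of 0.40 (SE 0.18). In the 10 libraries the median log2 fold change was -0.02 over the 75 and 0.00 over all tested genes. By list in the 10 libraries, 2 of 12 other lipases, 3 of 11 lipoprotein lipase handling genes, 5 of 14 synthesis genes, 6 of 15 droplet genes, 5 of 13 signalling genes and 5 of 10 fatty acid handling genes had a value above 0. Over the lists these are 26 of 75 genes, where 47.3% of all tested genes lay above 0. With 12 libraries 35 of 75 did, against 49.5% of all genes, and by list, in the same order, the counts were 7, 4, 7, 6, 7 and 4. The adipocyte coat Plin1 measured 0.176 CPM in replicate 22 and 0.678 CPM in replicate 19, against 3.20 to 36.6 CPM in the other unmarked libraries and 304.2 CPM in replicate 11. Bscl2, the droplet assembly protein seipin, was 12.0 times and Gpd1, which makes glycerol 3-phosphate, 8.52 times the unmarked median in replicate 11. Their log2 fold changes were -0.09 (SE 0.09) and -0.14 (SE 0.19) in the 10 libraries.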

How the data were processed

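Per the labels' protocols, poly(A) RNA of 12 mouse hearts was sequenced as single-end reads of 100 nt. The authors deposited 1 table of raw counts by gene symbol for each library, with no normalisation. The submitters' processing notes name STAR 2.4.0, featureCounts 1.4.4, mm10 and GRCm38. Annotation release and strand setting: not given in the sources used here. Totals were 17263209 to 51556592 counts, which limits precision for low genes. Nothing in the labels says that libraries are separate animals beyond their titles, so p-values measure the spread between these samples, which may be technical. No pair of replicates looked like repeat deposits of one library (lowest chi-square per degree of freedom 7.03 over genes with at least 20 counts in the pair).

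Groups came from the sample titles. edgeR 4.0.16 (glmQLFit, glmQLFTest, TMM factors, filterByExpr with a minimum count of 10, Benjamini-Hochberg at 0.05) was fitted to all genes of 12 and of the 10 unmarked libraries. CPM used TMM factors of 12 libraries, and log2 CPM a prior count of 1. Correlations used 100000 shuffles, or all orders for 6 libraries. The fits were tested on simulated data first. The genes of the set and the gene lists were chosen with earlier results of these data known, and 2 older symbols were added to the lists after the files were read. Further genes were named by rule: pathway genes and genes within 1 Mb of Mgll at an unadjusted p below 0.05 (for the pathway otherwise the 5 smallest of each fit), and the 5 genes most like Mgll. The adipocyte and droplet genes Plin1, Bscl2 and Gpd1 are among the 5 smallest of the 12-library fit. Exon lengths and positions came from GENCODE vM21 (GRCm38), to which 22707 symbols matched directly and 933 through an older symbol. Promoter windows came from RefSeq (GRCm38.p6). Alternatives were other scaling factors, filters, DESeq2 1.42.0, limma 3.58.1 voom, marker covariates and leaving libraries out. Leaving out replicates 19 and 22, other scaling in 10 libraries, atrial markers in place of Adipoq and pairs of genes were added after seeing the data. Python 3.11.15 and R 4.3.3 were used.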

Additional observations from a re-analysis of the deposited data

Results flagged for a closer look

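Each library was compared with the other 5 of its genotype for 30 genes the text names (60 groups of 6). A library far from the rest was found in 38 groups, against a nominal rate of about 1 in 20 for independent values. Of these, 35 were one of the 2 marked libraries.

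In HKII+/- replicate 11 the high values were 995.6 CPM of Pnpla2, 172.0 of Lipe, 135.5 of G0s2, 560.8 of Plin5, 89.8 of Dgat1, 266.7 of Adipoq and 567.6 of Hk2. It was also high in Chchd6 (25.96 CPM), Bscl2 (214.97), Gm6484 (2.55), Gpd1 (889.45), Plin1 (304.2), Prkar2b (107.5), Slc27a4 (47.5), Gadd45gip1 (82.0), Dysf (347.9), Igflr1 (12.4) and Ppp1r12c (843.4). Agpat1, at 48.05 CPM, was low there.

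In HKII+/+ replicate 13 the high values were 384.7 CPM of Mgll, 662.5 of Pnpla2, 121.1 of G0s2, 551.7 of Plin5, 39.99 of Dgat1, 30.4 of Abtb1 and 18.2 of Chchd6. It was also high in Bscl2 (63.8 CPM), Plin3 (301.96), Slc27a4 (48.2), Gadd45gip1 (118.2), Dysf (331.8), Igflr1 (13.96) and Ppp1r12c (570.2). Abhd5 (40.8 CPM) and Agpat1 (58.9 CPM) were low there.

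The 3 other libraries were HKII+/+ replicate 21 with 31.4 CPM of Kbtbd12, HKII+/- replicate 22 with 244 CPM of Plin3 and HKII+/+ replicate 14 with 33.15 CPM of Prkar2b. Gm6484 is an older symbol of Angptl8, an inhibitor of lipoprotein lipase.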

How the results depend on the processing

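No paired analysis was possible because no replicate number occurs in both genotypes. None of the 10 genes and none of the 75 pathway genes was called under any of 23 alternatives with 12 libraries or 19 with 10. The count of all genes called with 12 libraries (0) was 2 under voom with sample weights, 0 under DESeq2 and plain voom, and 1 without both marked libraries. With 10 libraries (1) it was 3 under DESeq2 and 0 to 2 when each library was left out. Mgll kept a positive log2 fold change under all 23 and all 19, from 0.11 to 0.45 with 12 libraries and from 0.15 to 0.35 with 10. The sign of Pnpla2, Lipe, Abhd5, G0s2, Plin5, Dgat1 and Dgat2 turned in at least 1 setting with 12 libraries.

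The number of genes correlated with Adipoq (0 with 12 libraries) was 1 with total counts in place of TMM (Lipe, r = 0.71) and 0 to 1 when each library was left out. With 10 libraries (0) it was 3 with the mean of white adipocyte markers (Mgll r = -0.84, adjusted p = 0.0319, Plin5 and Dgat2) and 1 with genotype means removed (Mgll r = -0.93). Leaving out each of 12 libraries, r with Adipoq ranged from -0.83 (without replicate 11, adjusted p = 0.0262) to 0.031 (without replicate 13) for Mgll. It ranged from -0.49 to 0.53 for Pnpla2, -0.52 to 0.40 for Abhd5, -0.59 to 0.26 for G0s2, -0.69 to 0.016 for Plin2, -0.59 to 0.41 for Plin5 and -0.39 to 0.58 for Dgat1. Without both marked libraries, Pnpla2 turned to -0.26, Abhd5 to 0.043, Plin5 to -0.72 and Dgat1 to -0.037. Plin5 was -0.0048 with the mean of white adipocyte markers and -0.0097 with total counts, and Abhd5 was 0.019 with total counts. In the 10 libraries, leaving out each in turn gave -0.67 to 0.033 for Pnpla2, -0.091 to 0.23 for Abhd5 and -0.30 to 0.41 for Dgat1. There Dgat1 turned to 0.038 with white adipocyte markers, 0.012 with genotype means removed and 0.35 with total counts. Abhd5 turned to -0.024 with atrial markers and Pnpla2 to 0.14 with total counts. The cause was not tested.

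The number of genes near Mgll at an unadjusted p below 0.05 was 1 of 22 within 1 Mb with 12 libraries, where 0.262% of all genes passed. Without both marked libraries it was 2 of 9 within 0.5 Mb, 3 of 22 within 1 Mb and 8 of 87 within 5 Mb, where 2.8% of all genes passed. Of the 8 within 5 Mb, 2 were higher and 6 lower in HKII+/-, where 1.51% of all genes passed upward and 1.29% downward. The 5 libraries of a genotype left without the marked ones limit what small differences can be resolved.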
